A study of Mus musculus with 6 samples.

Results

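The EGF family and its ErbB receptors were followed in C8D1A cells, a cloned mouse astrocyte line and therefore the descendants of a single clone, that either stayed untreated (control) or received pulsed radiofrequency (PRF), which sends bursts of high-frequency current through tissue and is used against neuropathic pain. No transgene or drug is named in the labels, and both groups shared the same culture: 6 days in medium with 10% serum, then 24 h without serum. The family was chosen as 10 genes by symbol, out of 22911 genes named on the array: the ligand genes Areg, Hbegf, Ereg, Tgfa, Btc, Egf and Nrg1 and the receptor genes Egfr, Erbb2 and Erbb3. RNA was hybridised to 6 one-colour arrays, 3 control and 3 PRF, from 3 independent experiments, and the sources used here do not give the settings, length or timing of the stimulation. The 10 genes had 16 probes, found through the transcript accession of each probe.

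ErbB receptors are tyrosine kinases of the cell surface that pair up when a ligand binds and then signal through the RAS-ERK and PI3K-AKT cascades. EGF-family ligands are made as membrane-anchored precursors, which proteases of the ADAM class cut free, and each ligand prefers certain receptors: amphiregulin, TGF-alpha and EGF bind EGFR, HB-EGF, betacellulin and epiregulin bind EGFR and ERBB4, and neuregulins bind ERBB3 and ERBB4. ERBB2 binds no ligand of its own and serves as the preferred partner of the others, while ERBB3 has little kinase activity and relies on its partner. In astrocytes this system is known for its part in proliferation and in the response to injury, and neuregulin 1 is best known in the nervous system for signals between neurons and glia.

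After PRF the ligand genes Nrg1, Hbegf and Areg were higher and the receptor genes Erbb2 and Erbb3 were lower. Hbegf was 2.19-fold higher (95% interval 1.68 to 2.86) and Areg 1.57-fold (1.34 to 1.85). Nrg1 went from below detection to above it on its brightest probe only, and its call follows largely from the rule for entering the test. Erbb2 was 1.37-fold lower and Erbb3 1.25-fold lower, the latter by a narrow call. Btc and Egf did not pass the test, and no probe of Ereg, Tgfa or Egfr was well above background on any array.

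A level here is the log2 processed signal of a probe minus the 75th percentile of its array, and levels of different probes cannot be set against each other. A probe entered the test if the image software flagged it as well above background on the full set of 3 arrays in the control group, the PRF group or both, which held for 8 of the 16 probes and so for 7 of the 10 genes. Where a gene had several tested probes, the brightest stood for it. The test was limma's moderated comparison over all 34838 tested probes, with Benjamini-Hochberg adjustment and a threshold of 0.05. Of the 7 tested family genes 3 passed upward, 2 passed downward and 2 did not pass. Of all 15069 tested genes 29.8% passed, 16.3% upward and 13.5% downward, so calls were common across the array. The median difference was -0.08 over the 7 family genes and -0.01 over all tested genes, both on the log2 scale. Nrg1 entered the test only through its brightness in PRF cells, and 473 of the 483 tested genes that were dim on every control array passed, so its call follows largely from the filter. The other 6 tested family genes were well above background on all 6 arrays. Among the 14044 genes with that property 26.7% passed, and 12.5% passed upward.

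The promoters of Areg and Erbb2 are shown because these genes moved in opposite directions and both have a reference window here. Each window covers 250 bases before to 50 bases after the annotated start, 5′ to 3′ on the gene's own strand, from RefSeq on build GRCm38.p6. Areg lies at chr5:91139349-91139648 on the plus strand and Erbb2 at chr11:98412234-98412533 on the plus strand. Capitals mark the cyclic AMP response element TGACGTCA, or its shorter core TGACG, on either strand. The full element contains the core on both strands.
Areg: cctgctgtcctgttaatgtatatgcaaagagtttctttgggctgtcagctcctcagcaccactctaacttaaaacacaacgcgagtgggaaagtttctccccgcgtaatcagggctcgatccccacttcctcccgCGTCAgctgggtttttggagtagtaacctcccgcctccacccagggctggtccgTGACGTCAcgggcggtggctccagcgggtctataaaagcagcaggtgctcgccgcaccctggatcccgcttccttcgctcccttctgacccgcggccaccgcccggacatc
Erbb2: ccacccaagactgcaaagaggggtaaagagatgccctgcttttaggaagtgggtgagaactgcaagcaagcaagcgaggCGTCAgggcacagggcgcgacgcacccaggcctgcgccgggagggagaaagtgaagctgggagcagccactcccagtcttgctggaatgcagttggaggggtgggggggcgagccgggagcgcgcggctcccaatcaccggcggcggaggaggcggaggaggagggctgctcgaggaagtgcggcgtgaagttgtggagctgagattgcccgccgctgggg
The Areg window held the full element, starting 61 bases before the start, and a separate core read on the other strand that starts 115 bases before it. The full element is in 1.79% of all 32851 windows of this length and the core in 20.8%. The Erbb2 window held 1 core, 171 bases before the start, and no full element. Windows were matched for 6 of the 10 genes (Areg, Btc, Egf, Egfr, Erbb2 and Tgfa, with 2 for Egf). The remaining ones held the core in Btc and no other match to TGACGTCA, to the AP-1 site TGANTCA (7.81% of all windows), to the EGR site GCGTGGGCG (0.612%), to the heat shock element (0.603%) or to the CArG box of serum response factor (1.63%). These matches describe letters only. No measurement here shows a factor at these promoters.

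Hbegf encodes heparin-binding EGF-like growth factor, a ligand of EGFR and ERBB4. Control arrays 1 to 3 gave processed signals of 4947, 3909.7 and 3217, and PRF arrays 1 to 3 gave 10244, 7427 and 6450.2. Every PRF array was brighter than every control array, and the groups did not overlap in level either. The mean level went from 2.64 ± 0.22 to 3.78 ± 0.23 (SD, n = 3), a difference of 1.13 (SE 0.16, limma adjusted p = 0.00342). This was the largest change among the family genes that were bright in both groups. Groups that do not overlap were found for 51.1% of all tested genes, and a rise of at least 2-fold past the threshold for 8.06%.

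Areg encodes amphiregulin, a low-affinity EGFR ligand that is induced in many injured or inflamed tissues. Signals were 143, 131 and 109 in control and 219.6, 163 and 166 in PRF cells. All PRF values lay above all control values, with PRF array 1 the highest. The level went from -2.32 ± 0.12 to -1.67 ± 0.12 (SD, n = 3), a rise of 0.66 (SE 0.10, limma adjusted p = 0.00393).

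Nrg1 encodes neuregulin 1, the ligand of ERBB3 and ERBB4 that is made in many isoforms from alternative starts and exons. Its probe A_55_P1985433 had control signals of 6.25, 6.36 and 4.62, none well above background, and PRF signals of 44.8, 48.3 and 42.0, all well above it. The groups were far apart and the PRF arrays lay close together. Because the control level is not measured, only a rough figure can be given. Nrg1 was 4.27-fold higher when each control array was given the dimmest signal that counted as well above background. Some signals above that value were not flagged, so this is not a strict lower limit. The fitted levels were -6.80 ± 0.19 and -3.68 ± 0.17 (SD, n = 3, limma adjusted p = 6.43e-05). With normexp background correction the difference was 0.77 on the log2 scale in place of 3.12, a smaller rise than the 4.27-fold above. The other probes of Nrg1 did not show this. A_52_P369769, made against the same transcript, gave 3.36, 3.93 and 3.39 in control and 7.03, 9.38 and 2.29 in PRF cells, and A_52_P158772, made against a predicted transcript, gave 2.40, 2.43 and 2.46 against 5.35, 2.19 and 4.17. Both were below detection on every array, and their groups overlapped. The rise of Nrg1 thus rests on 1 of 3 probes.

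**Figure D1:**
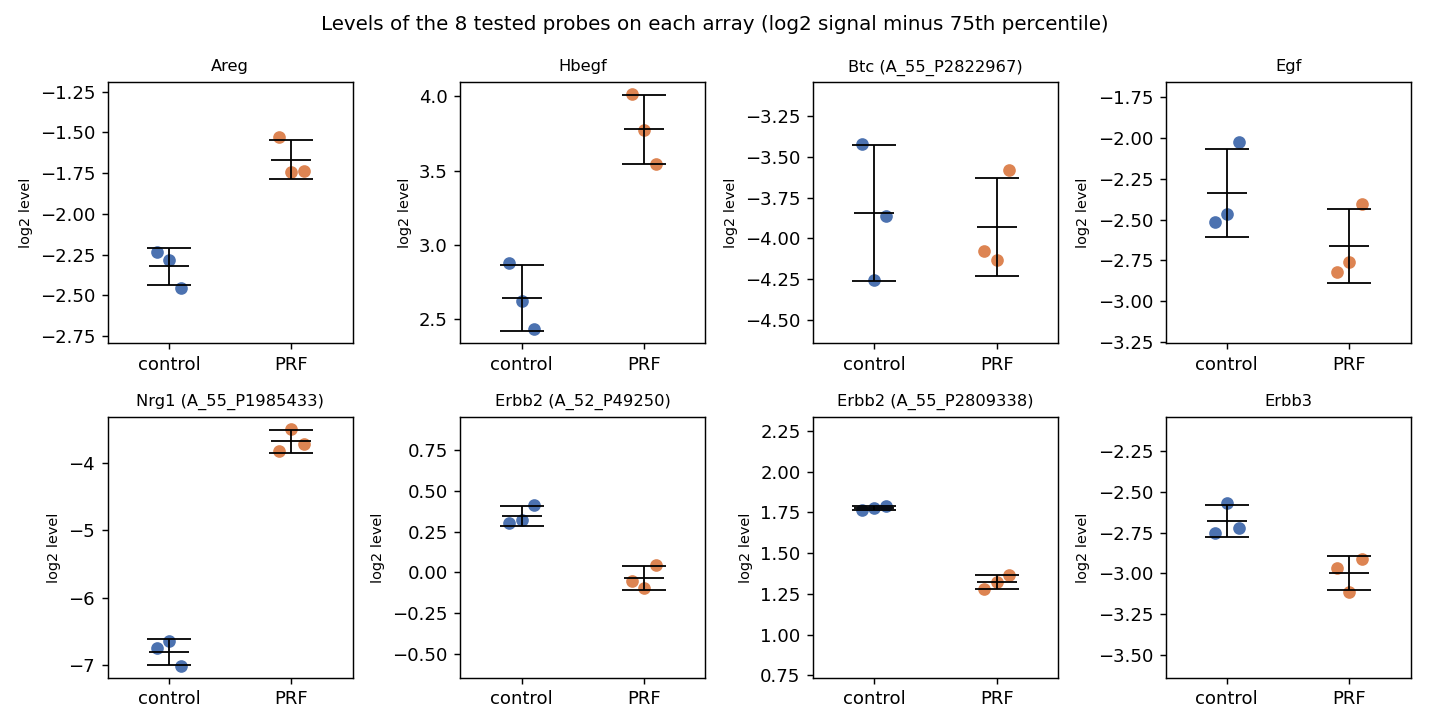
Log2 level (signal minus the 75th percentile of the array) of the 8 tested family probes on each of the 3 control and 3 PRF arrays, with a separate vertical scale per probe; points are arrays, and bars are mean ± SD. Nrg1, Hbegf and Areg lie higher in PRF cells without overlap, both Erbb2 probes and Erbb3 lie lower without overlap, and the groups overlap for Btc and Egf; the control points of Nrg1 are below detection.

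Egf encodes epidermal growth factor, the founding ligand of the family. Its signals were 118, 115 and 147 in control and 89.6, 80.2 and 104 in PRF cells. The groups overlapped in level, where PRF array 3 at -2.41 reached above control arrays 1 and 2 at -2.52 and -2.47. The difference was -0.33 (95% interval -0.74 to 0.09, limma adjusted p = 0.194). It passed downward with no scaling between arrays (adjusted p = 0.0444) and with spike-in scaling (adjusted p = 0.0378).

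Btc encodes betacellulin, which can bind both EGFR and ERBB4. The tested probe A_55_P2822967 gave 62.9, 33.3 and 41.0 in control and 37.6, 31.1 and 46.2 in PRF cells, so the control arrays alone spanned nearly the full range. The levels were -3.85 ± 0.42 and -3.93 ± 0.30 (SD, n = 3), a difference of -0.08 (95% interval -0.67 to 0.50, limma adjusted p = 0.821). That interval includes changes of up to 1.42-fold in the upward direction. Its other probe was below detection on all 6 arrays.

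Ereg encodes epiregulin, and its probe had signals of 2.54, 2.59 and 2.62 in control and 5.66, 10.4 and 11.9 in PRF cells. All PRF values were above all control values, yet none was well above background, so the gene was not tested and no fold is given. Without the filter on dim probes it would pass upward (limma adjusted p = 0.0202 over all 56605 probes). That fit uses signals that were all below detection, so it does not show a change of Ereg. Tgfa, the gene of transforming growth factor alpha, had signals of 9.53, 5.55 and 2.82 in control and 6.70, 4.84 and 6.79 in PRF cells. These overlapped and were all below detection.

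Areg, Ereg and Btc are neighbours on chromosome 5, together with Epgn, the gene of the ligand epigen. In the RefSeq gene order the stretch from Epgn to Btc holds 7 annotated genes, of which 4 are protein-coding, and these 4 are the ligand genes. Areg passed upward, Btc did not pass, and Ereg and Epgn were below detection on every array. The neighbours therefore did not show a shared detectable change.

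Erbb2 encodes the ligandless co-receptor, and its pair of probes gave like results. The brighter probe, A_55_P2809338, had signals of 2292, 2176 and 2064 in control and 1539.8, 1361 and 1426 in PRF cells. The control levels of 1.76, 1.78 and 1.79 and the PRF levels of 1.28, 1.32 and 1.37 were tight and well apart. The level fell by 0.45 (SE 0.06, limma adjusted p = 0.00286). The dimmer probe, A_52_P49250, had signals of 832, 795 and 795 against 611, 509 and 569.9. Its level fell by 0.38 (SE 0.07, limma adjusted p = 0.00951), and its groups did not overlap either.

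Erbb3 encodes the kinase-poor partner that binds neuregulins. Its signals were 99.98, 107.3 and 90.6 in control and 81.0, 62.8 and 73.5 in PRF cells, and each PRF array was below each control array. The level went from -2.68 ± 0.10 to -3.00 ± 0.11 (SD, n = 3), a fall of modest size (difference -0.32, SE 0.09, limma adjusted p = 0.0359). The call was narrow, and it held under 9 of the 18 alternative settings tried. It was lost without any 1 of control array 1, 2 or 3 or PRF array 1 or 2, where adjusted p ranged from 0.0590 to 0.106 and the difference from -0.36 to -0.26, and without the filter on dim probes (adjusted p = 0.0747).

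Egfr encodes the receptor that amphiregulin and HB-EGF bind. Its 3 probes, which target 2 transcripts, were below detection on all 6 arrays. Signals lay between 2.37 and 2.49 in control and between 2.11 and 2.45 in PRF cells for A_52_P106259, between 2.52 and 2.67 and between 2.31 and 2.71 for A_52_P674338, and between 2.70 and 4.14 and between 2.46 and 4.66 for A_52_P56471. The lowest signal that counted as well above background ranged from 10.4 to 11.9 over the arrays. Egfr RNA was therefore not detectable with these probes, which does not show that the receptor is absent. Erbb4, the remaining receptor of the family, was below detection as well on its 1 probe.

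**Figure D2:**
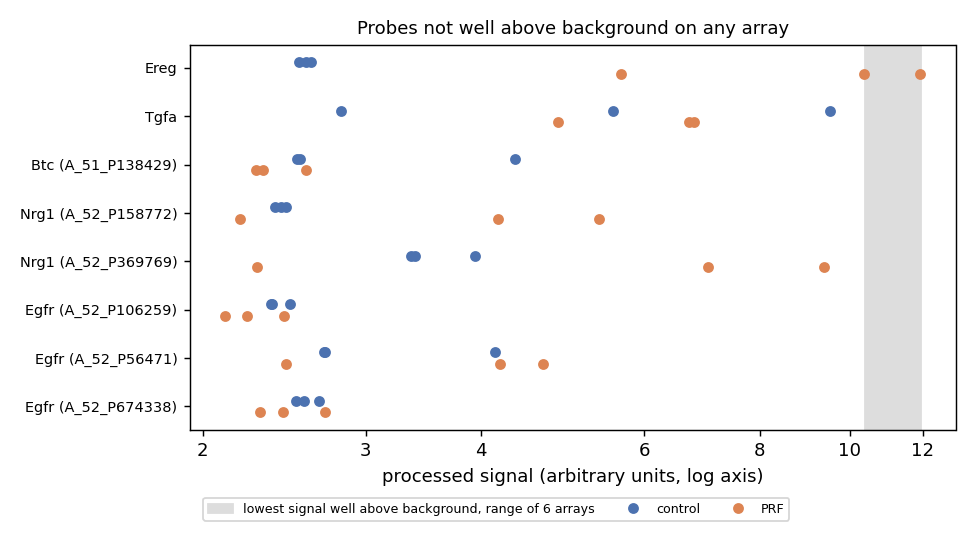
Processed signal (arbitrary units, log axis) of the 8 family probes that were not well above background on any array, with 1 point per array, blue for control and orange for PRF; the grey band spans the lowest signals well above background on the 6 arrays, from 10.4 to 11.9. The 3 Egfr probes lie between 2.11 and 4.66 in both groups, and the PRF points of Ereg lie at 5.66, 10.4 and 11.9, above its control points near 2.6; none of them counted as well above background.

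The direction of Hbegf, Areg, Erbb2 and Erbb3 was the same under every scaling tried. A scaling by 1 amount per array shifts all genes together, which quantile normalization and normexp do not. The median log2 difference over all tested probes was 0.02 with the 75th percentile, -0.12 with no scaling and -0.18 with spike-in scaling. Hbegf rose by between 0.93 (spike-in) and 1.14 (normexp), and Areg by between 0.45 (spike-in) and 0.66. The brighter Erbb2 probe was at -0.59 with no scaling, -0.65 with spike-in scaling and -0.42 with quantile normalization. No scaling and spike-in scaling move every probe of an array by 1 amount, so the order of the differences stays the same under them by construction.

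**Figure D3:**
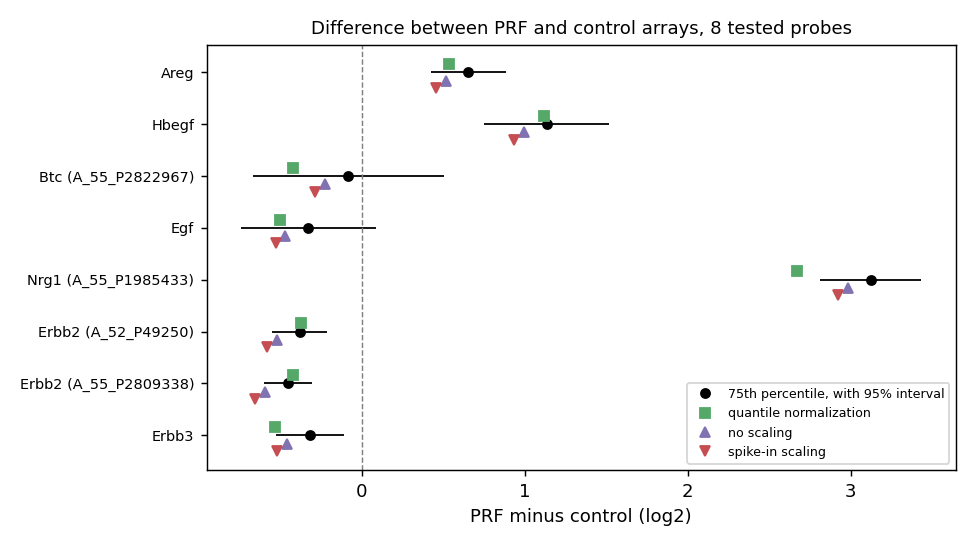
Difference between PRF and control (log2) for the 8 tested family probes; black points and lines are the main estimate and its 95% interval, and coloured symbols are the estimates with quantile normalization, no scaling and spike-in scaling. The called probes stay on 1 side of 0 under each scaling, from Erbb2 at -0.65 to Nrg1 at 3.12, whose size is uncertain because its control level is below detection.

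The arrays lay in 2 rows of 1 slide, scanned together. Row 1 held control 1, control 3 and PRF 2, and row 2 held control 2, PRF 1 and PRF 3. Within rows 1 and 2 the difference was 0.60 and 0.65 for Areg, 1.12 and 1.16 for Hbegf, -0.46 and -0.45 for the brighter Erbb2 probe and -0.38 and -0.37 for Erbb3. The within-row values were close to each other for these genes, but with 3 arrays a row and 1 residual degree of freedom none of them passed (limma adjusted p from 0.0794 to 0.314). Each of these fits sets 1 array of a group against 2 of the other, so the lone array is assumed to vary like the pair.

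The remaining genes of the family were mostly below detection. Of Epgn, Nrg2, Nrg3, Nrg4 and Erbb4 only Nrg2, a second neuregulin gene, could be tested, and it did not pass (levels -1.55 ± 0.10 and -1.65 ± 0.26, SD, n = 3, limma adjusted p = 0.618).

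With these 5 genes, the lists drawn up for the path from ligand release to target genes held 66 genes, of which 60 were tested, 12 rose and 4 fell. The split depended on the scaling, with 7 up and 6 down with no scaling, 11 and 8 after centring on the median of the tested probes, 12 and 8 after quantile normalization and 10 and 15 with spike-in scaling. With the 75th percentile the share called was 26.7%, against 29.8% of all tested genes, and the counts below are to be read against the latter. Among proteases and helpers that release EGF-family ligands, 1 of 10 tested genes rose and 2 fell. Adam8, a metalloprotease of leukocytes and activated glia, rose 1.51-fold (limma adjusted p = 0.00987). Adam19, a protease able to cut neuregulin precursors, was 1.56-fold lower (limma adjusted p = 0.0284), and Bace1, the beta-secretase that also cuts neuregulin 1, fell by 0.27 on the log2 scale (limma adjusted p = 0.0223). Adam17, the main sheddase of amphiregulin and HB-EGF, had levels of 1.90 ± 0.04 and 1.95 ± 0.13 (SD, n = 3, limma adjusted p = 0.641), and Adam10, the sheddase of EGF and betacellulin, levels of 4.99 ± 0.10 and 4.95 ± 0.13 (SD, n = 3, limma adjusted p = 0.763). The median over the list was -0.02. The calls of Adam19 and Bace1 each ended when control array 2, control array 3, PRF array 1 or PRF array 2 was left out (adjusted p between 0.0577 and 0.0857), and that of Adam8 ended with no scaling (adjusted p = 0.0635). Adam8 passed under 15, Bace1 under 11 and Adam19 under 10 of the 18 alternatives tried.

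In the core cascade of adaptors, RAS, RAF, MEK, ERK and PI3K genes, 1 of 22 tested genes rose and 1 fell, which is 9.09% and below the share of all genes. Gab1, a docking protein that links EGFR to PI3K and SHP2, rose 1.44-fold (SE 0.08 on the log2 scale, limma adjusted p = 0.00491). Araf, a RAF kinase, was 1.18-fold lower on its brighter probe (limma adjusted p = 0.0341), while its other tested probe differed by 0.08 in the opposite direction and did not pass (limma adjusted p = 0.364). The Araf call was lost without any 1 of the 6 arrays (adjusted p from 0.0652 to 0.107), and it held under 7 of 18 alternatives. Dimmer probes of Akt1 and Shc1 passed (0.39 and -0.22 on the log2 scale, limma adjusted p = 0.0246 and 0.0328). The brighter probes that stood for these genes did not pass.

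Of 11 tested negative regulators of ErbB receptors 3 rose and 0 fell with limma, and 3 and 1 had an unadjusted p below 0.05. Errfi1, also known as MIG6, which binds and blocks active ErbB kinases, rose by 0.67 (SE 0.14, limma adjusted p = 0.0144). Its control levels were close together at 2.53 ± 0.07, and the PRF levels were more spread at 3.20 ± 0.27 (SD, n = 3). Socs4 and Socs5, adaptors that help to degrade EGFR, rose 1.41-fold and 1.43-fold (limma adjusted p = 0.00491 and 0.0429). Lrig1, a membrane protein that lowers ErbB levels, did not pass (2.80 ± 0.03 and 2.75 ± 0.14, SD, n = 3, limma adjusted p = 0.670). The list median was -0.05. Errfi1 narrowly missed the threshold without control replicate 3 or PRF replicate 2 (adjusted p = 0.0518 and 0.0521), and Socs5 missed it when control array 2, control array 3, PRF array 1 or PRF array 2 was left out (adjusted p between 0.0860 and 0.118). With no scaling, none of these 3 passed (adjusted p = 0.0629 for Errfi1, 0.0647 for Socs4 and 0.208 for Socs5), and Socs5 passed under 7 of 18 alternatives.

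Of 16 genes known to be induced by EGF or ERK, 7 rose and 1 fell. Differences were positive for 10 and negative for 6, and 8 and 3 of these had an unadjusted limma p below 0.05. The list median was 0.20. Among those that passed, the 4 with the largest changes were Egr1, a zinc finger factor of the early response (log2 rise 2.86), Phlda1 (1.13), Dusp5, a nuclear ERK phosphatase (1.09), and Fosl1, an AP-1 subunit (0.97). Dusp6, a cytoplasmic ERK phosphatase, and Spry2, an inhibitor of receptor signalling to RAS, rose 1.75-fold each, and Dusp4 rose 1.22-fold. Spry4, a relative of Spry2, differed by 1.21 with wide spread (SE 0.38, limma adjusted p = 0.0534) and did not pass. Fos (0.12, limma adjusted p = 0.238), Ccnd1 (0.01, limma adjusted p = 0.964) and Etv4 (-0.25) did not pass either. Myc, the growth-promoting transcription factor, was 1.28-fold lower, and its other probe passed in the same direction. The Myc call was lost without PRF replicate 2 (adjusted p = 0.0610), and the Dusp4 call when PRF array 1 or any single control array was left out (adjusted p between 0.0585 and 0.0656). The Dusp4 call was lost as well when arrays were left unscaled or scaled on the spike-ins (adjusted p = 0.414 and 0.409) and with the array row as a block (adjusted p = 0.0505). Dusp4 passed under 8 of 18 alternatives. Many stimuli besides EGF induce these genes, and a part for the ErbB system in their changes was not tested.

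**Figure D4:**
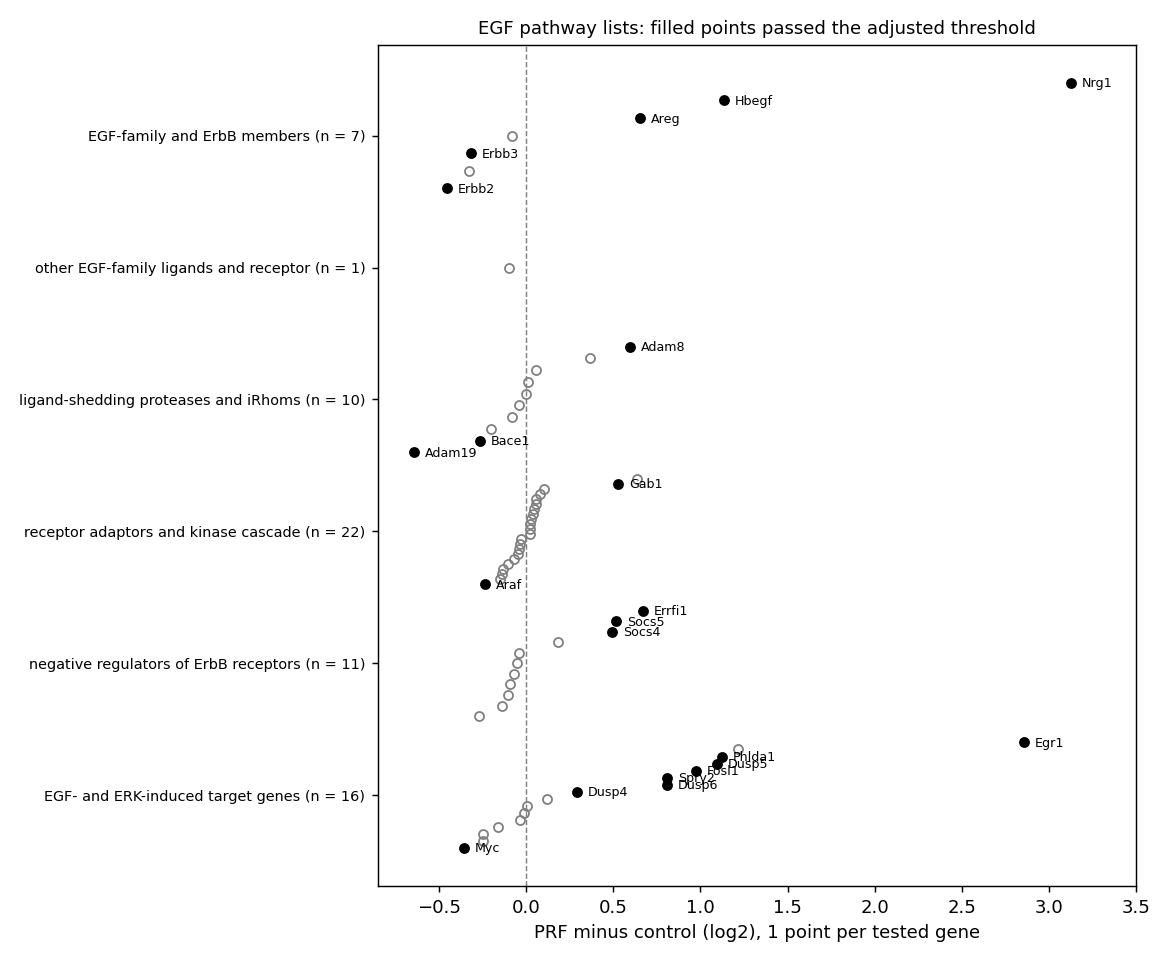
Difference between PRF and control (log2) of each tested gene in the family and in 5 lists of the EGF pathway, 1 point per gene; filled, named points passed the adjusted threshold of 0.05 and open points did not. Most points of the receptor cascade lie near 0 with 2 of 22 filled, whereas 8 of 16 target genes are filled, with Egr1 at 2.86.

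The profile most like that of Hbegf over the 6 arrays, with each gene centred on its own mean, was that of Cyb5d1 (root mean square distance 0.067 on the log2 scale), followed by Mcl1 (0.069) and Klf5 (0.073). Their changes were 2.20-fold, 2.17-fold and 2.06-fold upward, beside 2.19-fold for Hbegf. With 6 arrays in 2 groups this likeness is a description.

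Facts of the whole set bear on these values as follows. Of 56605 probes, a control array had 33669 to 34637 well above background and a PRF array 35146 to 36188, and correlations between arrays were 0.994 to 0.997 within and 0.959 to 0.977 between groups. The number of arrays limits the precision. Of 9 astrocyte markers 7 could be tested between the groups, with 0 past the limma threshold. Of these 1 had an unadjusted p below 0.05, and the lowest adjusted p was 0.0980, for Aldh1l1. Slc1a3 and Gja1 were below detection on every array. The summed linear signal of the 9, in units of each array's 75th percentile, was 57.6 to 63.3 in control and 64.5 to 68.1 in PRF cells. S100b made up 97.6% to 98.1% of it. Signals of different probes cannot be set against each other, so such shares, here and below, are shares of signal and not of RNA. A comparison between groups cannot check the astrocyte label itself. Sox10, which marks oligodendrocyte lineage and Schwann cells, was well above background on all 6 arrays, with signals from 29483 to 49748. S100b had 33634 to 42356 and the brighter Gfap probe 77.7 to 111. The summed linear signal of 5 fibroblast markers was 1.14 to 1.31 in control and 1.76 to 1.94 in PRF cells. It is given in units of each array's 75th percentile. Col1a1, Col1a2 and Col3a1 were past the threshold upward, and Pdgfra and Dcn were not. Col1a2 was too dim to be flagged on control arrays 2 and 3, so only its PRF brightness brought it into the test. A second Col1a1 probe did not pass (0.40, limma adjusted p = 0.0523). The summed signal of 5 microglial markers, in the same units, was 8.87 to 9.27 in control and 13.2 to 17.9 in PRF cells. Itgam alone made up 92.3% to 96.3% of it. Itgam passed upward, Csf1r and Tmem119 did not pass (Tmem119 at -0.25, limma adjusted p = 0.0601), a second Csf1r probe passed downward (-0.30, limma adjusted p = 0.0180), and Aif1 and Cx3cr1 were below detection. That of 4 oligodendrocyte markers was 73.4 to 76.9 and 53.4 to 68.1, of which Sox10 made up 97.9% to 98.5%, with Mbp past the threshold upward, Mog and Sox10 past it downward and Olig2 not. That of 5 neuronal markers was 22.7 to 25.6 and 23.8 to 28.3, with Snap25 past the threshold upward (1.96-fold, limma adjusted p = 0.0127), Map2 and Tubb3 not, and Rbfox3 and Syt1 too dim to test. That of 5 endothelial markers was 0.143 to 0.149 and 0.180 to 0.213, with Kdr, dim on every control array, past the threshold upward, Pecam1 not, and Cdh5, Tek and Cldn5 too dim to test. Their part in the changes of the family was not tested. In bulk RNA, fewer cells that express a gene and less of its RNA per cell cannot be told apart.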

How the data were processed

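Per the file headers, each deposited file is the output of Agilent Feature Extraction 10.7.3.1 for 1 one-colour (Cy3) array, with intensity values that the software had corrected for background within the array. No normalization between arrays had been applied. A series table from the authors has the same linear intensity: on each array at least 99.98% of its probes matched the processed signal to a relative difference under 0.0001. The authors' own tests are not described in the sources used here. RNA had an integrity number of 9.5 or more, per the labels' protocols.

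Control spots and spots flagged as outliers were left out, spots of a probe were averaged as log2 values (56605 probes), and the 75th percentile of each array was subtracted. No value of a family probe was missing or saturated. Probes were named through RefSeq transcripts of assembly GRCm38.p6 (32994 named, 23611 not); the array design refers to an older build. Group was the sole term of each main fit (limma 3.58.1 with eBayes, under R 4.3.3), and the fit was tested on simulated data. The files hold no mean spot signal, so normexp (offset 50) used the median signal. Spike-in scaling used 8 control probes.

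The family and the lists were chosen with earlier results of these data known. All family genes are named, with up to 4 passing genes of each list by size of change, the first gene of a list in which none passes, and the 3 nearest profiles to Hbegf. Adam10, Adam17, Lrig1, Nrg2, Akt1, Shc1, Dusp4, Dusp6, Spry2, Spry4, Fos, Ccnd1, Etv4 and Myc were added after their values were seen. One of the cell type markers is not reported here, and the sum of its list leaves it out. The p-values rest on the spread between 3 arrays per group, from independent experiments, with variances that limma moderates over all tested probes. The main fits did not pair control and PRF arrays.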

Additional observations from a re-analysis of the deposited data

How the results depend on the processing

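Over the alternatives, the family had 4 to 6 genes past the limma threshold, against 5, except within array rows: 1 within row 1 and 1 within row 2, with 5 and 4 at an unadjusted p below 0.05. That 1 was Nrg1, which entered the test through its PRF brightness, so no family gene that was bright in both groups passed within a row. Leaving out 1 array gave 4 to 5 family genes, 10 to 18 of the pathway lists' genes (against 16) and 7220 to 10684 probes (against 10833). The lowest pathway counts came without control replicate 3 or PRF replicate 2, and the lowest probe count without PRF replicate 2. The pathway count was 25 with spike-in scaling (10 up and 15 down), 5 within row 1 and 0 within row 2, where 10 had an unadjusted p below 0.05 with limma. Probe counts within rows were 3209 and 162; these fits have 3 arrays each. The share of called probes that rose was 59.2%, but 38.3% with no scaling, 28.2% with spike-in scaling and 41.4% after quantile normalization. Deviations of same-numbered control and PRF arrays were weakly correlated (0.15, -0.08 and 0.05), against -0.17 to 0.13 for differently numbered ones. With 3 arrays per group these values cannot settle whether the numbers pair the samples. With the replicate block, 5 family genes passed, among them Egf (adjusted p = 0.0316) in place of Erbb3 (adjusted p = 0.0904), and Araf, Bace1 and Dusp4 no longer passed (adjusted p = 0.0707, 0.0547 and 0.0544). Erbb3 was missed without the filter on dim probes too (adjusted p = 0.0747). Ereg passed in that fit on signals that were all below detection, which does not show a change. Areg, Hbegf and both Erbb2 probes passed under 16 of 18 alternatives, all but the within-row fits. Nrg1 could not be tested with the filter on all 6 arrays, and its calls elsewhere follow largely from its dim controls. Signals below about 12 units are not told apart from background here.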
